A study of Mus musculus with 15 samples.

Results

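The proteasome subunits are described here: the protein-coding genes whose symbols begin with Psma, Psmb, Psmc, Psmd or Psme followed by a digit. In the authors' table, 45 of 54495 rows met this rule. The 45 genes were chosen by name alone, and 4 further rows that match by symbol are pseudogenes and were left out. They comprise 14 subunits of the 20S core (7 of the alpha ring and 7 of the beta ring), 17 of the 19S cap (6 ATPases and 11 others), 3 immunoproteasome subunits, 3 cap assembly chaperones and 5 genes of activators that bind the core in place of the cap. The remaining 3 are Psma8 and Psmb11, core subunits known mainly from testis and thymus, and Psmc3ip, whose symbol meets the rule although its protein is a partner in meiotic recombination and no proteasome subunit.

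The proteasome is the protease that degrades ubiquitin-tagged proteins in the cytoplasm and nucleus. Its core is a barrel of stacked rings in which Psmb5, Psmb6 and Psmb7 carry the cutting sites; the cap recognises ubiquitin chains, unfolds the substrate with its ATPase ring and feeds it into the barrel. Interferon replaces the cutting subunits by Psmb8, Psmb9 and Psmb10, which changes the peptides made for MHC class I. When degradation falls short, the transcription factor NRF1 (gene Nfe2l1) raises the transcription of many subunits through antioxidant response elements in their promoters.

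The cells were mouse embryonic fibroblasts (MEFs) taken at embryonic day 13.5 and grown at 37 °C in 5% CO2 and 3% O2. All 6 groups lacked both mTR (Terc, the RNA of telomerase) and Wrn, the helicase lost in Werner syndrome, so no group here has intact telomerase or Wrn. DM stands for mTR-/-Wrn-/-p53WT, with wild-type p53, and TM for mTR-/-Wrn-/-p53N236S/N236S, in which both p53 alleles carry the N236S change (called p53S). The cells came from generations G1, G3 and G5 of such mice, and the question the design names is how p53S alters ageing phenotypes of this Werner model. The 15 libraries were divided as 2 for G1DM, 2 for G1TM, 2 for G3DM, 3 for G3TM, 3 for G5DM and 3 for G5TM. The labels do not say which libraries came from separate embryos, so p-values measure the spread between these libraries, which may in part be technical. The wild-type and p53S control MEFs named in the design text are not analysed here.

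Levels are in FPKM, which divides the fragments of a gene by its length and by a library size, so genes may be compared within a library. Read totals recovered from the table ran from 17448588 to 29571111 per library. The library size that the values imply was not the read total. It was 14722711 against 18248823 reads in G3TM replicate 2, and 28800354 against 25933487 in G5DM replicate 3. In G3TM replicate 1 it was close (26306206 and 26292651), and in G5TM replicate 2 it was larger (18147629 and 17448588). The part of this scaling in the differences below was not tested on its own. All G3TM and G5TM libraries (6, called late TM below) were set off from the remaining 9: the mitochondrial rRNA mt-Rnr2 lay between 44.7 and 73.6 FPKM in the 6 and between 1.48 and 3.76 in the 9, and mt-Co1 between 839 and 1692.5 against 3873.2 to 4916.4. Comparisons of TM with DM in G3, in G5 and as a mean, and of later TM generations with G1TM, span this division, and genotype and generation cannot be told apart from it there. TM against DM in G1 and the DM generations lie within the 9 libraries, and G5TM against G3TM within the 6. Summed Y-linked genes (Ddx3y, Eif2s3y, Kdm5d, Uty) were at 2.40 to 4.52 FPKM in the G3TM libraries and listed at 0 in both G3DM libraries, so genotype cannot be told apart from the embryos' sex in G3 either. In G5 the sum was 0, 31.7 and 34.7 FPKM in DM and 3.70, 0 and 0 in TM, and in G1 it was 15.0 and 0 in DM and 0 in both TM libraries, so sex was not balanced there. Fibroblast markers summed to 2728 to 4895 FPKM, and all 10 were detected. Of these, 5 were called lower in TM in the mean of the generations by the test given below. Over all tested genes, 25.1% were called lower and 29.0% higher in that comparison. Skeletal muscle markers summed to 1.70 to 8.81 FPKM in the 9 libraries and 3.99 to 252 in the 6, and neural markers to 38.4 to 96.5 and 95.1 to 286. Epithelial markers summed to 3.71 to 46.8 and 19.1 to 72.2 FPKM, with 3.71 to 5.23 in G5DM and 19.1 to 49.6 in G5TM, and endothelial markers to 1.48 to 5.09 and 0.926 to 1.95, with 3.63 to 4.06 in G5DM. Their part in the results below was not tested. In bulk RNA, fewer cells of a type and less RNA per cell cannot be told apart.

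Promoters of 4 members are shown because these genes had the highest and the lowest differences between TM and DM in G5 among subunits and activators with a unique name. Each is a stretch upstream of the gene as the table lists it, read 5′ to 3′ on the gene's strand from RefSeq, GRCm38.p6. Capitals mark matches to TGANNNNGC, the antioxidant response element, searched on both strands.
Psmb5 (chr14:54618023-54618245, minus strand): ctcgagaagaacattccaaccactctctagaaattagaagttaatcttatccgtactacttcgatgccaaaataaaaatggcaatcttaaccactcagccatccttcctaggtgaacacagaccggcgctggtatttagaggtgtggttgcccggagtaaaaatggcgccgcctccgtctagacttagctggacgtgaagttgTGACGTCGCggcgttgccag
Psmb6 (chr11:70525107-70525356, plus strand): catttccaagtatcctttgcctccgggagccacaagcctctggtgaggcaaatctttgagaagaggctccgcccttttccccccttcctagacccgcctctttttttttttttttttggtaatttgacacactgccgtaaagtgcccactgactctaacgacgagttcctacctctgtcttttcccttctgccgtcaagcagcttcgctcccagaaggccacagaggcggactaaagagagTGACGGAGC
Psmc6 (chr14:45329574-45329787, plus strand): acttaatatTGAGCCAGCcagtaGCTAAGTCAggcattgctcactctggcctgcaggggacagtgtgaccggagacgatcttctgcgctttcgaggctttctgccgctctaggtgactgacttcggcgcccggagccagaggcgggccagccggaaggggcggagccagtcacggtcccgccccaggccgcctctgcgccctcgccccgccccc
Psme4 (chr11:30771525-30771725, plus strand): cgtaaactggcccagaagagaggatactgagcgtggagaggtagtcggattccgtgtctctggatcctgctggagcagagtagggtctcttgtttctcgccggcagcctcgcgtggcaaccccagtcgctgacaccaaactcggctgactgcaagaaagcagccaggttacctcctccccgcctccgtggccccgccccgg
The Psmb5 and Psmb6 windows each hold 1 match close to the gene, the Psmc6 window holds 2 farther upstream, and the Psme4 window holds none. Of the 45 members, 38 matched a RefSeq promoter. Within 250 bases upstream 15 of these held the element (39.5%), and 35.2% of all 32851 promoters did. A member was counted once if any of its promoters held a match, whereas the share of all promoters counts each promoter singly. Members with several promoters, such as Psma6 and Psmc2, had more chances of a match. The shares given here and below are therefore in unlike units, and no enrichment can be read from them. CCAAT, the NF-Y element, was also found in 15 of 38 members against 33.8% of all promoters. The interferon-stimulated element GAAANNGAA was found in 3 members and 7.13% of all promoters. TTTGAA, the cell cycle homology region bound by the DREAM complex, was found in 2 members and 16.0% of all promoters. TTCNNNGAA, a STAT element, was found in 1 member, Psmb8, and 7.02% of all promoters.

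Members were tested with all genes that reached 1 FPKM in at least 2 libraries, 13562 in all, on log2(FPKM + 1) with limma, and called changed at a Benjamini-Hochberg adjusted p under 0.05. Differences are on that log2 scale with their standard error (SE), which understates changes of low genes. Of the 45 members 42 were tested, and Psma8, Psmb9 and Psmb11 did not pass the filter.

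Between TM and DM, no member passed the test in G1, and the called members were higher in TM in G3 and, with 2 exceptions, in G5. In G3, 21 of 42 members were higher in TM and none lower, where 32.0% of all tested genes were called, 18.0% higher and 13.9% lower. In G5, 29 were higher and 2 lower, where 58.7% of all genes were called, 30.3% higher and 28.4% lower. With quantile normalization the splits were 17 higher and 2 lower in G3, and 24 higher and 5 lower in G5. Over all 13562 tested genes these splits were 2100 and 2215, and 3911 and 3925. As the mean of the generations, 30 were higher and 2 lower, against 54.1% of all genes called, 29.0% higher and 25.1% lower. The higher members in G3, in G5 and in the mean include Psmc3ip, which is no proteasome subunit. The median difference over the members was 0.79 in G3 and 1.01 in G5, and 0.01 and 0.02 over all tested genes. The count in G3 rests on G3DM replicate 2, without which 7 members were called. Libraries of the groups did not overlap, TM above DM, for 23 members in G1 (26.4% of all genes), 26 in G3 (31.6%) and 29 in G5 (29.6%). TM lay below DM without overlap for 1 member in G1 (23.0% of all genes), 4 in G3 (28.2%) and 2 in G5 (28.3%).

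In G1, none of 42 members was called by limma, where 1.17% of all genes were, and 1 member had an unadjusted p under 0.05. Of all 13562 tested genes, 1696 had an unadjusted p under 0.05. A second limma fit, voom on the recovered reads with the implied library sizes, also called none. The difference was positive for 40 members, with a median of 0.27 against 0.02 over all genes, and the core genes ran from 0.10 to 0.47. The 2 negative ones were Psme2 at -0.55 ± 0.32 (SE) and Psmd8 at -0.12 ± 0.38. The member under an unadjusted 0.05 was Psmc3ip, the recombination factor, at 1.27 and 1.61 FPKM for G1DM against 3.76 and 3.76 for G1TM (difference 0.97 ± 0.25, limma adjusted p = 0.084).

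**Figure D1:**
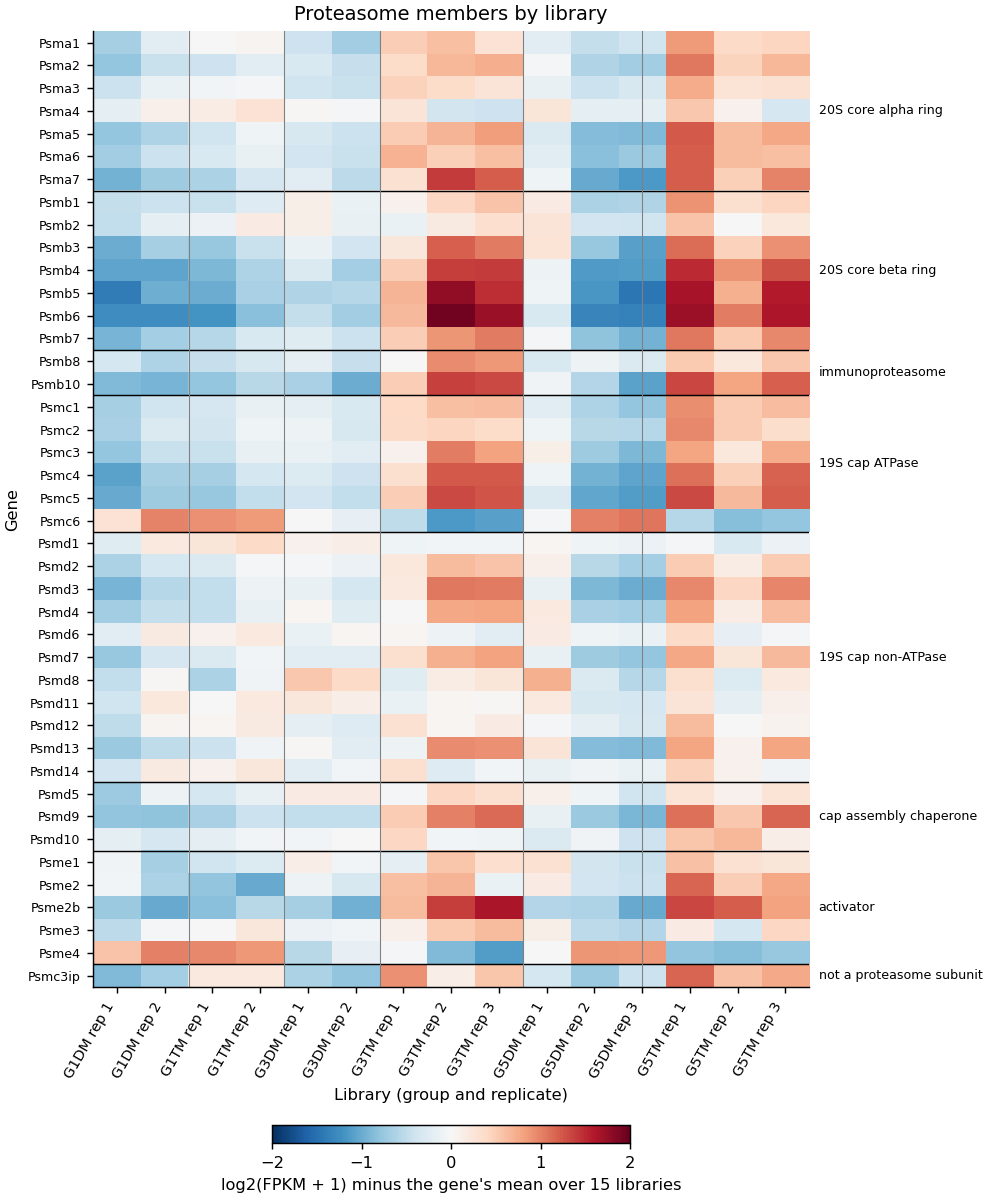
Each row is 1 of the 42 tested members, grouped by class, and each column 1 of the 15 libraries; colour gives log2(FPKM + 1) less the gene's mean over the libraries. Most members are red in the 6 libraries of G3TM and G5TM, Psmc6 is blue there, Psme4 is blue in all of them but G3TM replicate 1, which is near its mean, and G5DM replicate 1 differs from the other G5DM libraries.

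Between the 6 libraries of G3TM and G5TM and the other 9, 21 members did not overlap and were higher in the 6, and 1, Psmc6, was lower throughout. The 21 include Psmb8, which passed the filter only through late TM libraries, so a difference was built into its being tested. Over all tested genes, 17.1% were higher and 9.63% lower without overlap. Within the 6, G5TM minus G3TM gave no called member (0.0295% of all genes called) and none with an unadjusted p under 0.05. Within DM, none was called in G3 minus G1 (0.214% of all genes called, 2 members with an unadjusted p under 0.05), in G5 minus G1 (0.059% called, no such member) or in G5 minus G3 (4.98% called, 2 such members), and voom on the recovered reads called none in these 4 comparisons either. Those 2 pairs were Psme4 and Psmd5, and Psme4 and Psmc6. Of all 13562 tested genes, 381 had an unadjusted p under 0.05 in G5TM minus G3TM. In DM there were 2784 such genes in G3 minus G1, 689 in G5 minus G1 and 3011 in G5 minus G3. Leaving out G5DM replicate 1 gave 3 called members in G5 minus G3 in DM and 1 in G3 minus G1 in DM, and leaving out G3TM replicate 1 gave 1 in G5 minus G3 in DM.

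Within TM, 23 members were higher and 2 lower in G3 than in G1 (46.8% of all genes called, 25.2% higher and 21.6% lower), and 28 were higher and 3 lower in G5 than in G1 (49.5% called, 26.0% higher and 23.5% lower). With quantile normalization the splits were 13 higher and 8 lower, and 16 higher and 7 lower. Over all 13562 tested genes these splits were 3029 and 3144, and 3202 and 3398. The comparisons share the G1TM libraries. Psmb6 differed by 2.45 ± 0.39 (SE) in G3 minus G1 and by 2.47 ± 0.39 in G5 minus G1, Psmc6 by -1.80 ± 0.32 and -1.61 ± 0.32, and Psme4 by -1.59 ± 0.32 and -1.71 ± 0.32. The third lower member in G5 was Psmd1, a scaffold of the cap, at -0.47 ± 0.17 (limma adjusted p = 0.039). Without G1TM replicate 1 the counts were 10 and 13 members.

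In the core, most subunits of both rings were higher in TM in the later generations. Of the 14 subunits, 11 were higher in G3 and 12 in G5, and none was lower in either. Among the 11, Psmb3 held the G3 call in 9 of 24 alternatives (limma adjusted p up to 0.23). Over all tested genes, 18.0% were higher and 13.9% lower in G3, and 30.3% and 28.4% in G5. In the alpha ring, which gates the barrel and docks the cap, 6 of 7 were called in both generations, with G5 differences from 0.74 ± 0.16 (SE) for Psma3 to 1.64 ± 0.33 for Psma7. Without G3DM replicate 2, none of the alpha ring and 2 of the core, Psmb5 and Psmb6, kept the G3 call. Psma4 was the exception at 53.3, 34.4 and 33.3 FPKM in G3TM and 45.3 and 43.6 in G3DM, and its G5 difference was 0.13 ± 0.24. In the beta ring, Psmb1 was called in G5 at 0.91 ± 0.23 and had 0.36 ± 0.26 in G3, and Psmb2, the other uncalled subunit, had 0.43 ± 0.23 in G5. Psmb4, a non-catalytic subunit, differed by 1.57 ± 0.35 in G3 and 2.01 ± 0.31 in G5. The differences of its 14 genes ran from 0.13 to 2.44 in G5.

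Psmb6 (ENSMUSG00000018286, chr11:70525367-70527858), the caspase-like subunit, had the highest difference of the core. It was at 29.5 and 29.5 FPKM (G1DM), 30.5 and 39.1 (G1TM), 50.5 and 43.4 (G3DM), 111, 273 and 238 (G3TM), 57.0, 27.7 and 27.3 (G5DM) and 234, 146 and 219 FPKM (G5TM). Every G3TM and G5TM library lay above all 9 others, and G3TM replicate 1 was the lowest of the 6. The group means stood at a ratio of 4.42 in G3 and 5.35 in G5, and the differences were 2.02 ± 0.39 (SE, limma adjusted p = 0.0022) and 2.44 ± 0.35 (adjusted p = 0.00013). In G1 the difference was 0.22 ± 0.42 (adjusted p = 0.94).

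Psmb5 (ENSMUSG00000022193, chr14:54614119-54618022), the chymotrypsin-like subunit and the target of bortezomib, was at 38.8 and 52.6 FPKM (G1DM), 52.1 and 66.4 (G1TM), 68.6 and 69.9 (G3DM), 168, 359 and 294 (G3TM), 97.9, 46.0 and 37.9 (G5DM) and 331, 172 and 316 FPKM (G5TM). The 6 late TM libraries again lay above the other 9. Its differences were 1.90 ± 0.41 in G3 (SE, limma adjusted p = 0.0045) and 2.22 ± 0.37 in G5 (adjusted p = 0.00037).

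Psmb7 (ENSMUSG00000026750, chr2:38588036-38644087), the trypsin-like subunit, was at 15.6 and 18.9 FPKM (G1DM), 20.4 and 24.6 (G1TM), 25.8 and 22.4 (G3DM), 43.4, 57.4 and 64.1 (G3TM), 30.3, 17.2 and 15.4 (G5DM) and 64.5, 44.6 and 60.5 FPKM (G5TM). The groups separated as for the other cutting subunits, by a smaller step. The differences were 1.14 ± 0.28 in G3 (SE, limma adjusted p = 0.0078) and 1.43 ± 0.25 in G5 (adjusted p = 0.00046). Without G3DM replicate 2 the G3 call was lost (adjusted p = 0.082).

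In all 3 cutting subunits, G5DM replicate 1 was the highest of its group and lay above both G3DM libraries, while replicates 2 and 3 were near G1DM. The Y-linked sum was listed at 0 in G5DM replicate 1 and was 31.7 and 34.7 FPKM in replicates 2 and 3. The part of sex in this difference was not tested.

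**Figure D2:**
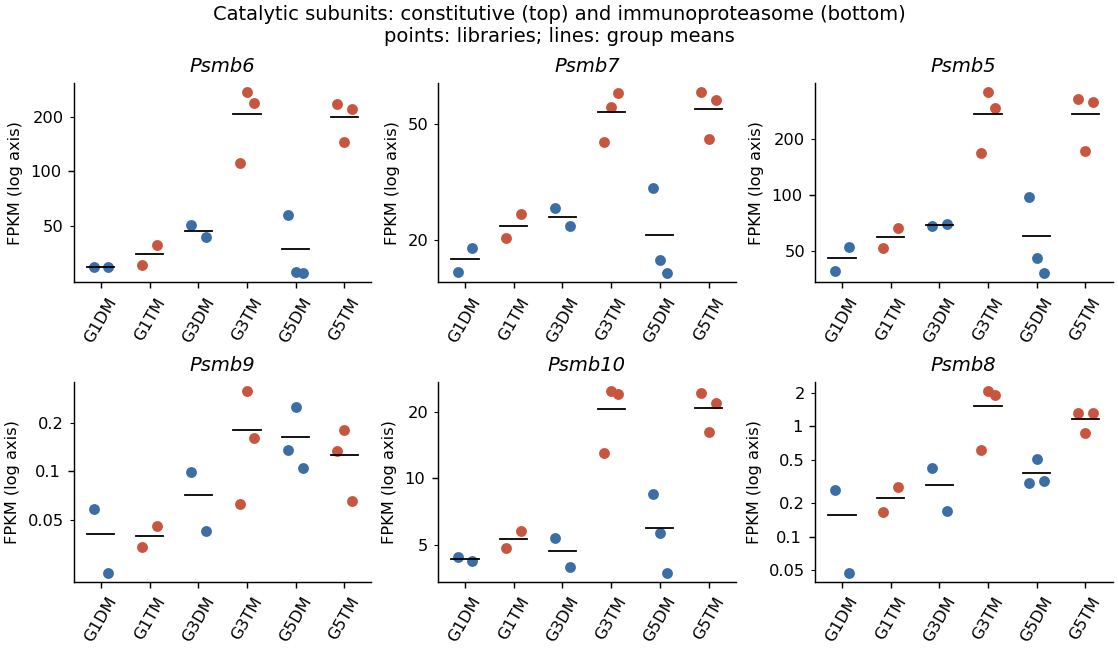
FPKM on a log axis in each of the 15 libraries (points, blue for DM and red for TM, lines at group means) for the constitutive cutting subunits in the top row and the immunoproteasome subunits below them. All G3TM and G5TM points lie above the other groups for Psmb5, Psmb6, Psmb7, Psmb8 and Psmb10, and overlap them for Psmb9.

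The immunoproteasome subunits stayed below the subunits they replace in every library, and Psmb10 was higher in TM in G3 and G5. Psmb10 (ENSMUSG00000031897, chr8:105935735-105938444), which replaces Psmb7, was at 4.43 and 4.26 FPKM (G1DM), 4.85 and 5.82 (G1TM), 5.38 and 4.01 (G3DM), 13.1, 24.7 and 23.9 (G3TM), 8.55, 5.69 and 3.77 (G5DM) and 24.4, 16.2 and 21.8 FPKM (G5TM). The late TM libraries did not overlap the other 9. The differences were 1.88 ± 0.31 in G3 (SE, limma adjusted p = 0.00086) and 1.68 ± 0.27 in G5 (adjusted p = 0.00033). Psmb10 stood at 17.9 to 33.1% of Psmb7 in the 9 libraries and at 30.1 to 43.1% in the 6. On the log2 scale, its mean difference exceeded that of Psmb7 by 0.29, and after removal of the trend with GC content and length this turned to -0.36.

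Psmb8, which replaces Psmb5, was close to the limit of detection. It was at 0.265 and 0.0472 FPKM (G1DM), 0.165 and 0.283 (G1TM), 0.419 and 0.170 (G3DM), 0.611, 2.09 and 1.93 (G3TM), 0.304, 0.506 and 0.317 (G5DM) and 1.32, 0.866 and 1.33 FPKM (G5TM), from 3 to 84 reads per library. It passed the filter only through late TM libraries, so a difference was built into its being tested. Without Psmb8, 20 of 41 members were higher in G3, 28 of 41 in G5 and 29 of 41 in the mean of the generations. The differences were 0.92 ± 0.26 in G3 (SE, limma adjusted p = 0.015) and 0.65 ± 0.23 in G5 (adjusted p = 0.026), and with the GC and length trend removed the G5 value was 0.10 (adjusted p = 0.69). Without G3TM replicate 2, G3TM replicate 3 or G3DM replicate 2 the G3 call was lost, and without G5DM replicate 3, G5TM replicate 1 or G5TM replicate 3 the G5 call was lost. The G5 call was also lost with no filter on low values, and the G3 call with only the groups compared, and over all alternatives the adjusted p reached 0.14 in G3. Relative to Psmb5 it stood at 0.0896 to 1.10% in the 9 libraries and 0.363 to 0.655% in the 6, which overlap.

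Psmb9, which replaces Psmb6 and lies head to head with Tap1, was not tested. It was at 0.0583 and 0.0235 FPKM (G1DM), 0.0337 and 0.0460 (G1TM), 0.0998 and 0.0425 (G3DM), 0.0623, 0.316 and 0.162 (G3TM), 0.136, 0.252 and 0.104 (G5DM) and 0.134, 0.181 and 0.0651 FPKM (G5TM), from 2 to 20 reads. Groups overlapped, and a difference was not detectable at this depth. Its exons overlap those of Tap1 on the opposite strand, and whether counting used strand is not given in the sources used here.

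Immune cells carry immunoproteasomes, so the macrophage and leukocyte list is given beside these values. Its 7 genes summed to 3.85 to 18.5 FPKM in the 9 libraries, to 4.90, 20.9 and 75.9 in G3TM, and to 12.0, 13.1 and 27.5 in G5TM. In G3TM replicate 3, the highest, Tyrobp was at 26.8, Cd14 at 18.1, Cd68 at 13.4, Csf1r at 12.5, Adgre1 at 3.497, Fcgr1 at 1.5003 and Ptprc at 0.0755 FPKM. Ptprc was the 1 marker of the 7 under 1 FPKM in every library. The sum was above the range of the 9 in G3TM replicates 2 and 3 and G5TM replicate 3, and within it in the other late TM libraries, where Psmb10 was at 13.1 to 24.4 FPKM. The part of such cells in Psmb8 and Psmb10 was not tested.

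Of the core subunits of testis and thymus, Psma8 lay between 0.0352 and 0.546 FPKM, from 1 to 20 reads. Psmb11 was listed at 0 in 5 libraries and reached 4 reads at most. A count of 0 allows up to 3 reads, which is 0.0211 to 0.0425 FPKM for Psmb11 over the libraries.

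In the cap, 5 of 17 subunits were higher in TM in G3, and 10 were higher and 1 lower in G5. The shares of all tested genes were 18.0% higher in G3, and 30.3% higher and 28.4% lower in G5. Of the 6 ATPases, which form the unfolding ring in equal numbers, 5 were higher in G5, from 1.01 ± 0.20 (SE) for Psmc2 to 1.87 ± 0.28 for Psmc5, and 1 was lower. Of the 11 others, 5 were higher in G5: Psmd2 and Psmd4, which bind ubiquitin or its carriers, and Psmd3, Psmd7 and Psmd13 of the lid, from 0.77 ± 0.23 for Psmd2 to 1.46 ± 0.28 for Psmd3. Psmd2, Psmd4 and Psmd13 lost the G5 call without G5DM replicate 2, without G5DM replicate 3 and with quantile normalization, and Psmd4 also with the GC and length trend removed (0.36, adjusted p = 0.13). Psmd14, the enzyme that removes ubiquitin chains, had 0.27 ± 0.20 (limma adjusted p = 0.26), Psmd1 -0.10 ± 0.15 and Psmd6 0.08 ± 0.18. Psmd12 was called in the mean of the generations alone, at 0.38 ± 0.13.

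Psmc6 (ENSMUSG00000021832, chr14:45329788-45349705) was the subunit that went the other way. It was at 17.1 and 28.7 FPKM (G1DM), 27.1 and 25.9 (G1TM), 13.9 and 12.3 (G3DM), 9.44, 5.71 and 6.00 (G3TM), 13.6, 29.1 and 30.1 (G5DM) and 9.05, 7.26 and 7.73 FPKM (G5TM). All 6 late TM libraries lay below the other 9, while the G3DM libraries and G5DM replicate 1 lay between these and G1. The difference was -0.83 ± 0.32 in G3 (SE, limma adjusted p = 0.060), -1.41 ± 0.28 in G5 (adjusted p = 0.0012) and 0.25 ± 0.35 in G1 (adjusted p = 0.89). The ratio of Psmc6 to Psmc5, another ATPase of the ring, was 0.159 to 0.630 in the 9 libraries and 0.0218 to 0.0637 in the 6. Psmc5 had the highest G5 difference of the ATPases and the pair was chosen after this was seen. A separation was therefore built into the ratio. With the GC and length trend removed Psmc6 stayed lower, at -0.83 in G5 (adjusted p = 0.0024).

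Core and cap stood in another relation on either side of the division. The mean log2(FPKM + 1) of the 14 core genes less that of the 17 cap genes was -0.35 to -0.05 in the 9 libraries and 0.31 to 0.51 in the 6. Summed core FPKM was 0.625 to 0.722 of summed cap FPKM in the 9 libraries and 0.923 to 1.07 in the 6. The core genes also lay wider apart in the 6: their coefficient of variation over the 14 genes was 0.454 to 0.499 in the 9 libraries and 0.547 to 0.810 in the 6. In the 9 libraries Psmb2 was the highest core gene, and in the 6 it was Psmb5. Psmb6 stood at 0.351 to 0.514 of Psmb2 in the 9 and at 1.30 to 2.56 in the 6. Psmb6 had the highest difference of the core and Psmb2 was not called, so a separation was built into this choice.

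**Figure D3:**
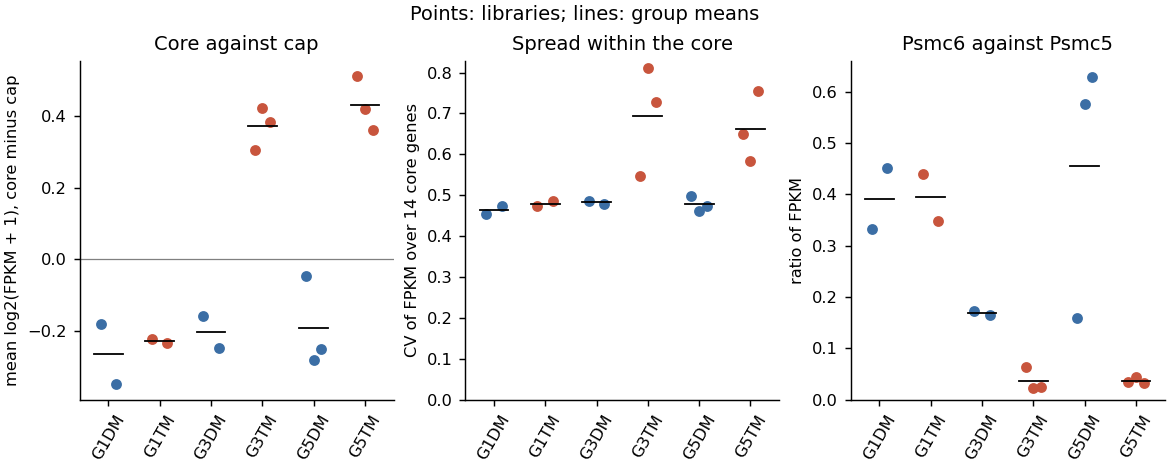
Points are the 15 libraries by group and lines group means: mean log2(FPKM + 1) of the core less that of the cap, coefficient of variation of FPKM over the 14 core genes, and the FPKM ratio of Psmc6 to Psmc5. The 6 G3TM and G5TM libraries lie apart from the other 9 in each panel. They lie between 0.31 and 0.51 in the first, 0.547 and 0.810 in the second and 0.0218 and 0.0637 in the third. The third panel pairs ATPases with opposite differences, chosen after these were seen, so its separation was built in.

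The cap assembly chaperones, which leave the finished particle, were mixed. Psmd9 was higher in TM in both generations, at 1.37 ± 0.26 (SE) in G3 and 1.53 ± 0.23 in G5, with 10.4 to 17.0 FPKM in the 6 libraries and 3.28 to 6.32 in the 9. Psmd10, also known as gankyrin, was called in G5 at 0.71 ± 0.18, and Psmd5 had 0.34 ± 0.20.

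Among the activators, Psme1 and Psme2 encode the interferon-induced PA28 alpha and beta, which form 1 ring together. Psme1 was at 20.3 and 13.1 FPKM (G1DM), 15.9 and 17.4 (G1TM), 23.3 and 20.4 (G3DM), 18.5, 31.7 and 27.2 (G3TM), 26.7, 16.2 and 15.4 (G5DM) and 32.5, 26.5 and 25.2 FPKM (G5TM). It was not called in any generation or in the mean, with 0.54 ± 0.25 in G5 (SE, limma adjusted p = 0.073). Without G5DM replicate 1 it was called in G5 (0.78, adjusted p = 0.010) and in the mean (0.34, adjusted p = 0.049), and without G3TM replicate 1 in G5 (adjusted p = 0.049). With the GC and length trend removed its G5 difference turned to -0.11. Psme2 was at 12.7 and 8.14 FPKM (G1DM), 7.26 and 6.05 (G1TM), 12.3 and 10.4 (G3DM), 20.6, 21.9 and 11.9 (G3TM), 15.0, 9.95 and 9.55 (G5DM) and 30.8, 19.02 and 23.4 FPKM (G5TM). It was higher in G5TM than in G5DM without overlap, by 1.02 ± 0.26 (adjusted p = 0.0050), and at 0.56 (adjusted p = 0.069) with the GC and length trend removed.

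Psme2b, a near copy of Psme2 on another chromosome, was at 9.27 and 7.50 FPKM (G1DM), 8.61 and 10.7 (G1TM), 9.84 and 7.80 (G3DM), 25.5, 44.0 and 52.2 (G3TM), 10.4, 10.2 and 7.51 (G5DM) and 42.3, 38.5 and 28.9 FPKM (G5TM). The differences were 2.03 ± 0.28 in G3 (SE, limma adjusted p = 0.00027) and 1.86 ± 0.25 in G5 (adjusted p = 9.4e-05). Its exons also overlap those of a gene on the same strand, so how reads were split between Psme2b, Psme2 and that gene is uncertain. Psme2b stood at 1.24 to 4.37 times Psme2 in the 6 libraries and at 0.692 to 1.77 times in the 9, which overlap.

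Psme3 encodes PA28 gamma, a nuclear activator that acts without ubiquitin and has p21 among its substrates. It was at 37.0 and 52.4 FPKM (G1DM), 53.3 and 62.6 (G1TM), 49.3 and 51.4 (G3DM), 57.6, 77.3 and 83.6 (G3TM), 58.1, 36.8 and 35.5 (G5DM) and 60.3, 41.6 and 71.7 FPKM (G5TM). It was called in the mean of the generations, at 0.43 ± 0.16 (SE, limma adjusted p = 0.038), a call held by 9 of 23 alternatives, and in no single generation. The call was lost without any 1 of 11 libraries, with an adjusted p of up to 0.56 over all alternatives.

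Psme4 (ENSMUSG00000040850, chr11:30771726-30880361) encodes PA200, which binds the core in the nucleus and is known from histone degradation. It was at 15.1 and 20.8 FPKM (G1DM), 20.01 and 18.6 (G1TM), 6.36 and 8.64 (G3DM), 9.55, 4.84 and 3.96 (G3TM), 9.75, 18.8 and 18.6 (G5DM) and 5.20, 4.95 and 5.40 FPKM (G5TM). G5TM lay below G5DM without overlap, whereas G3TM and G3DM overlapped and both lay below G1. The difference was -1.38 ± 0.28 in G5 (SE, limma adjusted p = 0.0014) and -0.32 ± 0.32 in G3 (adjusted p = 0.47). With the GC and length trend removed the G5 difference was -0.37 (adjusted p = 0.058). In DM, Psme4 had -1.15 ± 0.35 in G3 minus G1 (adjusted p = 0.11) and 0.93 ± 0.32 in G5 minus G3 (adjusted p = 0.10), the widest values of any member in those comparisons.

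**Figure D4:**
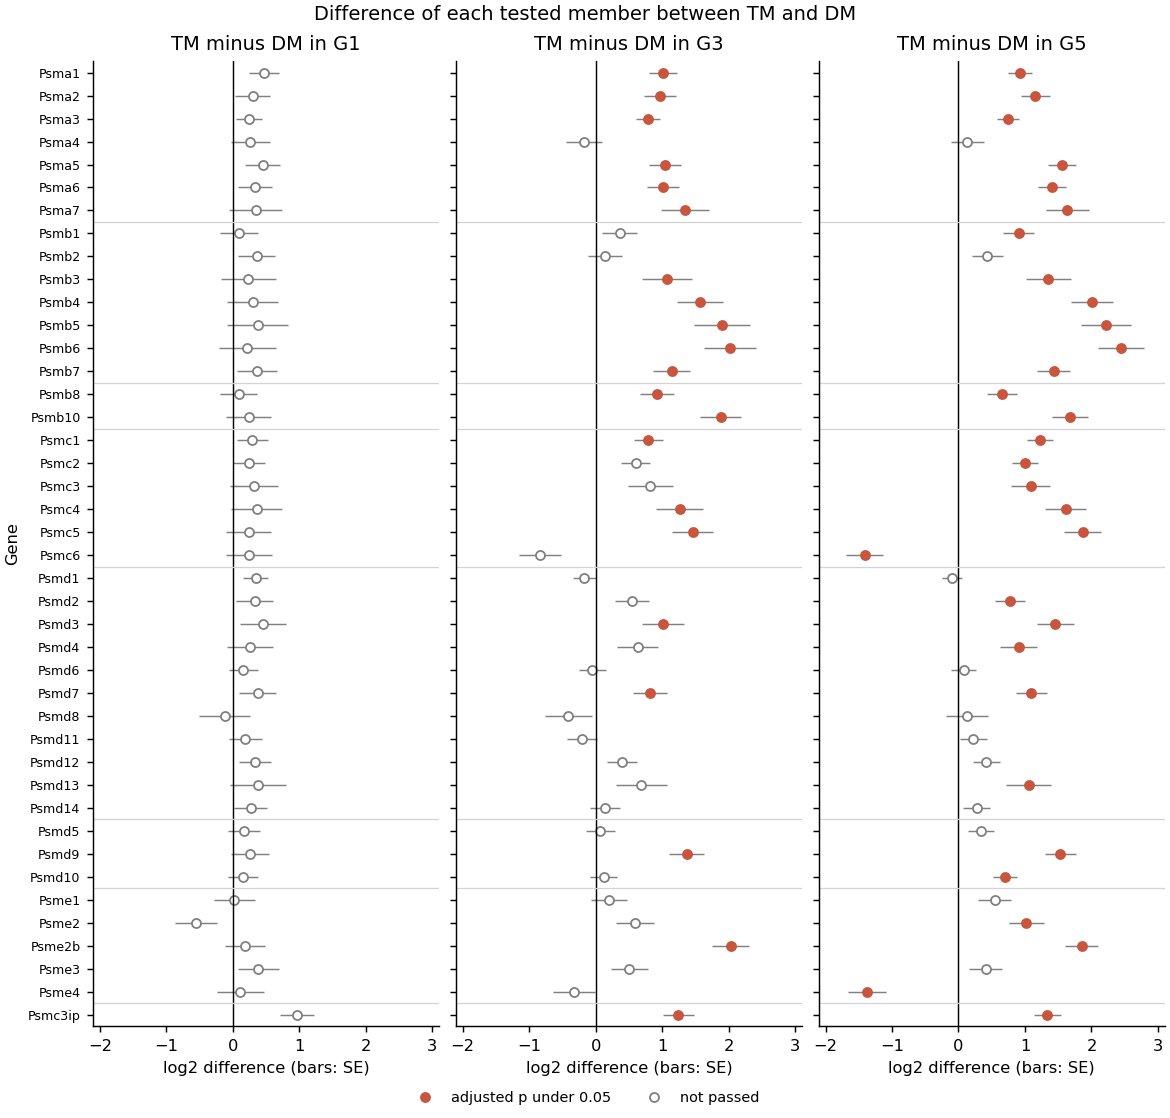
Difference in log2(FPKM + 1) between TM and DM for each of the 42 tested members, with bars of 1 SE, in G1, G3 and G5; filled points had an adjusted p under 0.05. No point is filled in G1, 21 are in G3 and 31 in G5, with Psmc6 and Psme4 on the lower side in G5.

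The differences of the members went with transcript composition, as those of all genes did. Across the 42 members, Spearman's rho between GC content and the TM minus DM difference was 0.44 in G3 and 0.46 in G5, and with gene length it was -0.45 and -0.48. Across the 13557 tested genes with a GC value the rho with GC was 0.27 and 0.55. These are correlations across genes that share libraries and are given as a description. Psmc6 and Psme4 have a GC content of 41.5% and 41.7%, and Psmb5 and Psmb6 of 57.0% and 52.7%. With the GC and length trend removed from each library, 24 members were higher and 1 lower in G3, and 30 were higher and 1 lower in G5. Over all 13562 tested genes, 3010 were then higher and 1983 lower in G3, and 3777 and 2813 in G5. As deposited these were 2446 and 1890, and 4114 and 3848. The trend was removed as an alternative chosen after seeing the data. Psma2, with the lowest GC content of the core at 40.6%, was higher in both forms, at 1.16 in G5 as deposited and 1.81 with the trend removed.

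**Figure D5:**
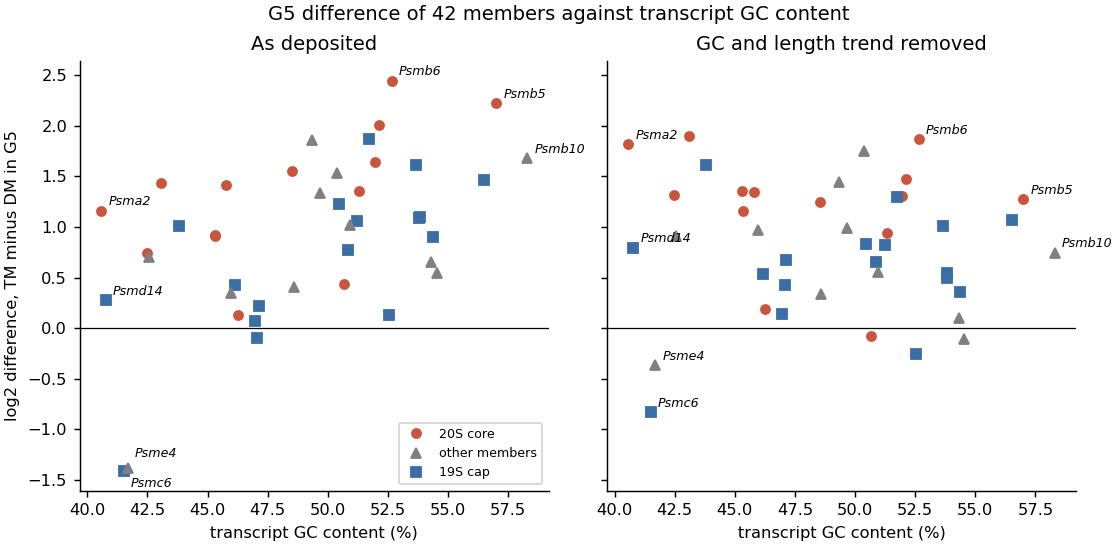
TM minus DM difference in G5 of the 42 tested members against GC content of their transcripts, as deposited (left) and with the trend on GC content and length removed (right). Psmb6 lies at 2.44 and 1.86, Psmc6 at -1.41 and -0.83, and Psme4 at -1.38 and -0.37.

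The genes that build and regulate the proteasome but carry other names were taken as lists, and none of the listed genes below passed limma in G1. An unadjusted p under 0.05 was found there for 2 assembly, 0 NRF1 pathway, 0 ubiquitin and 2 antigen processing genes, and for 1696 of all 13562 tested genes. Of 15 assembly and regulation genes, 9 were higher and 1 lower in TM in the mean of the generations, where 29.0% of all tested genes were higher and 25.1% lower. Psmg1, an assembly chaperone of the alpha ring, was at 9.33 and 9.31 FPKM (G1DM), 13.7 and 15.0 (G1TM), 11.8 and 9.98 (G3DM), 29.2, 49.0 and 46.8 (G3TM), 13.4, 8.87 and 9.09 (G5DM) and 45.8, 31.2 and 41.6 FPKM (G5TM). The late TM libraries lay above the other 9, and the mean difference was 1.40 ± 0.14 (SE, limma adjusted p = 1e-05). Psmg4, another such chaperone, had 1.30 ± 0.21, Adrm1, the ubiquitin receptor that docks on the cap, 1.28 ± 0.17, and Psmg2 0.90 ± 0.10. The lower gene was Ecpas, a proteasome adaptor, at -0.46 ± 0.15, named after its value was seen.

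Of 9 genes of the NRF1 pathway and its relatives, 3 were higher and 2 lower in the mean, shares near those of all genes (29.0% and 25.1%). Maff had 0.77 ± 0.22 (SE), Keap1 0.69 ± 0.12, Nfe2l2, which encodes NRF2, -0.45 ± 0.11, and Ngly1, the enzyme that activates NRF1, -0.39 ± 0.13. Nfe2l1 itself had -0.18 ± 0.12 (limma adjusted p = 0.20), with 49.8 to 85.0 FPKM in DM and 50.1 to 76.9 in TM, and is named here because the list is built on it.

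Of 15 genes of ubiquitin supply and delivery, 7 were higher and none lower in the mean, against 29.0% and 25.1% of all genes. Rps27a, which encodes ubiquitin fused to a ribosomal protein, had 1.29 ± 0.33 (SE), the small heat shock protein Hspb1 0.93 ± 0.25, and Ubb, a gene of ubiquitin repeats, 0.92 ± 0.21.

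Of 13 genes of MHC class I antigen processing and interferon signalling, 1 was higher and 4 lower in the mean, against 29.0% and 25.1% of all genes. The share of lower genes was near that of all genes, but the 4 include Tap1 and Nlrc5, whose direction was built in as given below. Tap1, the peptide transporter encoded beside Psmb9, was at 2.77 and 1.202 FPKM (G1DM), 0.398 and 0.227 (G1TM), 3.18 and 3.28 (G3DM), 0.430, 1.28 and 0.757 (G3TM), 4.08, 4.33 and 2.92 (G5DM) and 0.604, 0.775 and 0.794 FPKM (G5TM). Tap1 and Nlrc5 passed the filter through DM, with at most 1 TM library at 1 FPKM, so that being lower in TM was built into their being tested. DM lay above TM for Tap1 in each generation without overlap, and the mean difference was -1.28 ± 0.14 (SE, limma adjusted p = 1.8e-05). In G1, which lies within the 9 libraries, it was -1.14 ± 0.27 (adjusted p = 0.060). Nlrc5, the activator of MHC class I genes, had -0.90 ± 0.13, Tap2 -0.54 ± 0.16, and Irf1, an interferon-induced transcription factor, 0.95 ± 0.16. Psmb10 and Tap1 thus had differences of opposite sign in the late generations, where that of Tap1 was built into its being tested.

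Whether the TM minus DM difference itself changed between generations was tested as an interaction. From G1 to G3 the difference of 1 member changed, Psme2b (2.42% of all genes called, 1.53% upward and 0.885% downward), and from G1 to G5 that of 13 (19.8% called), 11 upward and 2 downward, against 11.5% and 8.33% of all genes. With quantile normalization the G5 split was 8 upward and 4 downward, against 1521 and 1351 of all 13562 tested genes, and with no filter 1 upward. Both interactions share the G1 libraries and span the division of the libraries. The G5 count moved from 13 to 23 without G5DM replicate 1, to 0 without G1DM replicate 1 or G1TM replicate 1, to 2 without G1TM replicate 2, G5DM replicate 2 or G5DM replicate 3, to 3 without G5TM replicate 1, and to 5 without G1DM replicate 2 or G5TM replicate 3. The G3 count was 5 without G3TM replicate 1, 3 without G5DM replicate 1, and 0 without any of the G1 or G3DM libraries or G3TM replicates 2 and 3.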

How the data were processed

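RNA with a polyA tail was sequenced from the 15 MEF libraries, extracted with TRIzol and prepared with a NEBNext Ultra kit, per the labels' protocols. The authors deposited 1 table of FPKM per gene. Tools listed in the submitters' processing notes, with no role given, were DESeq2 1.20.0, featureCounts 1.5.0-p3, HISAT2 2.0.5, fastp and CASAVA 1.8. The genome build is not given in the sources used here; gene coordinates equalled GENCODE vM21 (GRCm38) for 98.3% of identifiers. FPKM times gene length gave whole reads for 100% of values within a tolerance of 0.05.

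From these, log2(FPKM + 1) of the 13562 genes with at least 1 FPKM in 2 libraries was fitted with limma 3.58.1 (R 4.3.3), 6 group means, empirical Bayes moderation with an intensity trend, and two-sided p-values adjusted over all tested genes. The fit was tested on simulated data. The members and lists were chosen with earlier results of these data known. Values in each library are given for Psmb5 to Psmb10, Psme1 to Psme4 and the 2 largest rises and falls of each TM minus DM comparison and of G5 minus G1 in DM; up to 4 called genes per list are named. The value of 1 gene of the ubiquitin list that this rule names is not reported here. Values singled out beyond that rule (Psma4, Psmc3ip, Psmg1, Tap1) were chosen after they were seen. So were the ratios of Psmc6 to Psmc5 and of Psmb6 to Psmb2. Other pseudocounts, filters, scalings, replicate blocks and left-out libraries were run as alternatives. Exons of 14 members overlap those of another gene. Paaf1, written in the assembly list, was not used here. Python 3.11.15 with pandas 2.3.3, numpy 2.4.6 and matplotlib 3.10.9 handled tables and plots.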

Additional observations from a re-analysis of the deposited data

Results flagged for a closer look

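For the members below, the difference between TM and DM differed between generations by a test of that change itself (limma interaction, adjusted p under 0.05 over all tested genes). Between G1 and G3 this was Psme2b, at 1.85 ± 0.41 (SE, adjusted p = 0.035). Between G1 and G5 the catalytic and other beta subunits Psmb6 changed by 2.22, Psmb5 by 1.85 and Psmb4 by 1.71, and the immunoproteasome subunit Psmb10 by 1.44. In the alpha ring Psma5 changed by 1.11 and Psma6 by 1.08. In the cap ATPases Psmc5 changed by 1.63, Psmc1 by 0.93 and Psmc6 by -1.66. The chaperone Psmd9 changed by 1.27, and the activators Psme2b, Psme2 and Psme4 by 1.67, 1.57 and -1.50. Their adjusted p-values ran from 0.015 for Psme2b to 0.048 for Psmc1. G1 lies within the 9 libraries and the later TM groups outside them, so generation cannot be told apart from the division of the libraries. No other member changed its difference by this test.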

How the results depend on the processing

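The counts of called members in TM minus DM in G5 and as the mean, in the DM generations and in G5 minus G3 in TM stayed within 1.5 times, or at 0, under every alternative that kept all libraries. In G1, quantile normalization called 1 member. In the G3 interaction the count was 0 with no filter, with only the groups compared, with the replicate block and with voom, and 2 with GC content and length removed. In the G5 interaction it was 1 with no filter. Labels share replicate numbers. Deviations of same-numbered libraries from their group means had r from -0.34 to 0.32, with 0.30, 0.32 and -0.018 in G5. In groups of 2 libraries these deviations are mirror images of each other, so whether libraries were paired cannot be decided from them. With the replicate block the G5 interaction called 4 members; no other count moved by over 1.5 times except the G3 interaction.

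Leaving out 1 library gave 0 to 0 called members for TM minus DM in G1, 7 to 25 in G3, 27 to 34 in G5 and 26 to 35 for the mean. It gave 0 to 1 for G3 minus G1, 0 to 0 for G5 minus G1 and 0 to 3 for G5 minus G3 in DM, 10 to 29, 13 to 33 and 0 to 0 for the same in TM, and 0 to 5 and 0 to 23 for the interactions. The median difference of the 14 core genes in the mean of the generations exceeded that of the 17 cap genes by 0.30, and by 0.28 to 0.33 without 1 library, and the difference of Psmb10 exceeded that of Psmb7 by 0.24 to 0.34. Psmb10 less Psmb7 was 0.48 with quantile normalization and -0.36 with GC content and length removed.

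Directions turned for values that had not passed. With quantile normalization Psme1 was -0.061 in G1, -0.10 in G3 and -0.0047 in the mean, and Psme3 -0.21 in G5. With GC content and length removed Psme1 was -0.0774 in G3, -0.11 in G5 and -0.048 in the mean, and Psme4 0.0444 in G3. Without 1 library, the G1 differences ranged from -0.049 to 0.22 for Psmb8, -0.11 to 0.60 for Psmc6, -0.27 to 0.32 for Psme1 and -0.10 to 0.33 for Psme4. Of the called members, 7 of 21 in G3, 23 of 31 in G5 and 23 of 32 in the mean were called in every alternative run. The causes were not tested. Depth limits Psmb8, Psmb9, Psmb11 and Psma8, and a group left with 1 library is assumed to vary like the others.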
